A study of Mus musculus with 8 samples.

Results

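A set of 10 tetraspanin genes of the 25466 genes in the deposited count table was followed across 4 subsets of medullary thymic epithelial cells (mTECs) of the mouse. The members were taken by symbol from a list of family genes, namely Tspan8, Tspan1, Tspan3, Tspan15, Cd9, Cd63, Cd81, Cd82, Cd151 and Cd37, and all 10 had enough counts to be tested. mTECs are the stromal cells of the thymus that display self-antigens of many tissues to developing T cells, and Tspan8 serves in the study as an example of such a tissue-restricted antigen (TRA). The cells came from wild-type BL6N6 mice of 4 to 6 weeks of age and were sorted from the thymus as CD45neg, Epcam-positive and CDR1neg cells. They were then divided by antibody staining for Tspan8 and for MHCII, a surface marker of mTEC maturation, into Tspan8negMHCIIlo, Tspan8negMHCIIhi, Tspan8posMHCIIhi and Tspan8posMHCIIlo mTECs. Each of the 4 subsets was represented by 2 RNA-seq libraries labelled as biological replicates. No subset received a treatment or carried an altered allele, and whether a library pooled several mice is not given in the sources used here.

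Tetraspanins are small membrane proteins that cross the membrane repeatedly and organise partner proteins, such as integrins, immunoglobulin superfamily proteins and proteases, into membrane microdomains. CD63 resides mainly in late endosomes and on extracellular vesicles, CD151 binds laminin-binding integrins, and CD9 and CD81 share partners of the immunoglobulin superfamily. Tspan15 belongs to the TspanC8 group, which escorts the protease ADAM10 to the cell surface. CD37 is best known from leukocytes, whereas Tspan8 and Tspan1 are known from the epithelia of the gut and other secretory organs.

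Levels are given in CPM, the count of a gene relative to the total of its library, after TMM scaling of the totals. Fold changes come from edgeR's quasi-likelihood test across all 17006 genes tested, with p-values adjusted by the Benjamini-Hochberg method. A gene is called here when its adjusted p is under 0.01 and its absolute log2 fold change is at least 1. Library totals ranged from 1941518 to 7783841, so that 3 counts, the floor used here, correspond to between 0.385 and 1.55 CPM. Intervals of this kind cover the spread of these libraries and counting error only, and floors cover counting error only. H2-Ab1, an MHCII gene, was at 489 to 518 CPM in Tspan8posMHCIIlo, 1700 to 2074 CPM in Tspan8negMHCIIlo, 2431 to 2619 CPM in Tspan8posMHCIIhi and 4988 to 5098 CPM in Tspan8negMHCIIhi. MHCII RNA thus followed the gate within each Tspan8 level, and the MHCII gates of Tspan8pos and Tspan8neg cells did not hold equal levels. The summed level of 7 mTEC markers, among them Epcam, which was used in the sort, lay between 3127 and 5704 CPM in every library. The single markers did not run together. From MHCIIlo to MHCIIhi in Tspan8neg cells 3 were called higher and 2 lower. With Tspan8 in MHCIIlo cells 2 were called higher and 2 lower. Replicate 2 of Tspan8negMHCIIlo stood apart from replicate 1 in 8 thymocyte markers, which summed to 1164 CPM against 423 CPM, and results that depend on it are given with and without it. In such bulk samples, fewer cells that express a gene and less RNA of that gene per cell cannot be told apart.

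In all, 5 members, Tspan8 included, changed past the threshold between Tspan8pos and Tspan8neg mTECs in MHCIIlo cells, MHCIIhi cells or both. Without Tspan8, by which the cells were sorted, 2 of 9 members were called higher and 1 lower in MHCIIlo cells. In MHCIIhi cells 3 of the 9 were called higher. Of all genes tested, 21.4% were called in MHCIIlo and 18.5% in MHCIIhi cells, and the share called in either was not counted. Tspan8, Tspan1 and Tspan15 were higher in Tspan8pos cells at both MHCII levels, Cd9 was higher in the MHCIIhi cells, and Cd81 was lower in the MHCIIlo cells. Because these genes moved with the Tspan8 gate, the 250 bases before their RefSeq starts are shown. The gene positions given below are those of GENCODE, whose starts lie upstream of the RefSeq starts for all 5 genes, so that the window of Tspan8 lies wholly inside its GENCODE span and the other windows reach into theirs. The sequences come from RefSeq on GRCm38.p6, in which all 10 members matched an entry, and they read 5′ to 3′ on the strand of the gene. Capitals mark GGAAG, a core of Ets family binding motifs, and CACCC, a core of Krüppel-like factor motifs, on either strand (CTTCC and GGGTG on the other). They are shown as letters of the sequence only.
Tspan8: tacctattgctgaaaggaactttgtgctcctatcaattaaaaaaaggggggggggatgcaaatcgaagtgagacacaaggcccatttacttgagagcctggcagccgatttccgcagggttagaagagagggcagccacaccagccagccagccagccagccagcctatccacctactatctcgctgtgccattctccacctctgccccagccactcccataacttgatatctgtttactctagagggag
Tspan1: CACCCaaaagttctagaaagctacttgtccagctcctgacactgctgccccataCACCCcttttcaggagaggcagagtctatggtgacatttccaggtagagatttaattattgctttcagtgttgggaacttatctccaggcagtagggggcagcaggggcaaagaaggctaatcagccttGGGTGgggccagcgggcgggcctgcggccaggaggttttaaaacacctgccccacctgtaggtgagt
Tspan15: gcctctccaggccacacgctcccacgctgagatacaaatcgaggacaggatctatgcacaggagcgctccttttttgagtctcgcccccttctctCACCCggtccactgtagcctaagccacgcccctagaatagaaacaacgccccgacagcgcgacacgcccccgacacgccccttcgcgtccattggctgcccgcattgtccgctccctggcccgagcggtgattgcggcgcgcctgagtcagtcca
Cd9: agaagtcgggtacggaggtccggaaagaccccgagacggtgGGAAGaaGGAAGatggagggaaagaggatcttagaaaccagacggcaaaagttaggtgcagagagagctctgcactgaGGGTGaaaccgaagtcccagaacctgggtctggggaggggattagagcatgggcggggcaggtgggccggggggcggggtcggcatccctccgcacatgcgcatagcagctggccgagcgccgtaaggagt
Cd81: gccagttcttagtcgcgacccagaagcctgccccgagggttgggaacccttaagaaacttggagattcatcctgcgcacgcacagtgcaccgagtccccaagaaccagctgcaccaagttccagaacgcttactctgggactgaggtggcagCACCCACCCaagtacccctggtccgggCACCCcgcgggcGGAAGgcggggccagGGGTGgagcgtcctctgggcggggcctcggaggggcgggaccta
The windows lie at chr10:115817034-115817283 for Tspan8 on the plus strand, chr4:116167599-116167848 for Tspan1 on the minus strand and chr10:62231219-62231468 for Tspan15 on the minus strand. Those of Cd9 and Cd81 lie at chr6:125494761-125495010 on the minus strand and chr7:143052500-143052749 on the plus strand. Neither motif occurs in the window of Tspan8, and the bases before its GENCODE start were not searched. CACCC occurs 3 times in that of Tspan1, 1 time in that of Tspan15, 1 time in that of Cd9 and 4 times in that of Cd81, where a pair of matches shares a base. GGAAG occurs 2 times before Cd9 and 1 time before Cd81, and it does not occur before Tspan1 or Tspan15. GGAAG and CACCC matches do not overlap each other in these windows. Over the windows of all 32851 RefSeq starts, 64.1% hold GGAAG and 52.0% hold CACCC on either strand, so that a match in a window of this length is common.

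Tspan8, at chr10:115816832-115849893 on GRCm38, is the gene by whose protein the cells were sorted, and its RNA between Tspan8pos and Tspan8neg cells is therefore a check of the sort. Its level was 404.5 and 351.5 CPM in Tspan8posMHCIIhi and 347 and 366 CPM in Tspan8posMHCIIlo. It was 7.07 and 8.72 CPM in Tspan8negMHCIIhi. In Tspan8negMHCIIlo the replicates were at 3.65 and 14.6 CPM. Every Tspan8pos library was thus far above every Tspan8neg library, and Tspan8neg cells still had 13 to 68 counts of the gene. Between Tspan8posMHCIIhi and Tspan8posMHCIIlo the log2 difference was 0.08 with a 95% interval from -0.52 to 0.69 (edgeR adjusted p = 0.883), and these libraries overlapped. The log2 difference between Tspan8posMHCIIlo and Tspan8negMHCIIlo was 5.24, and it became 6.60 without replicate 2 of Tspan8negMHCIIlo and 4.60 without replicate 1.

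**Figure D1:**
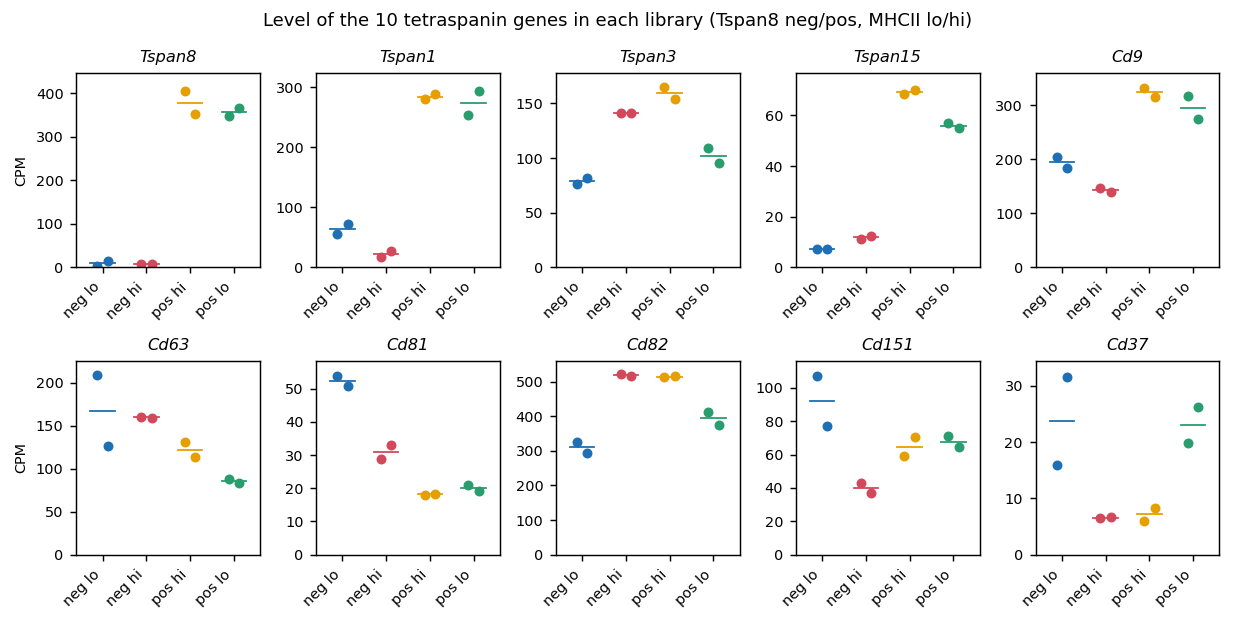
Each panel plots the level of a tetraspanin gene in CPM (vertical axis, linear, from 0) in the 8 libraries, grouped by subset (neg and pos for Tspan8, lo and hi for MHCII), with a point per library and a line at the mean of the 2 libraries. Tspan8, Tspan1 and Tspan15 separate the Tspan8pos from the Tspan8neg subsets, while Cd37 is at 5.97 to 8.33 CPM in the MHCIIhi libraries and at 16.0 to 31.6 CPM in the MHCIIlo libraries.

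Tspan1, at chr4:116161869-116167601, had 280.4 and 289 CPM in Tspan8posMHCIIhi and 254 and 294 CPM in Tspan8posMHCIIlo. It had 54.8 and 72.6 CPM in Tspan8negMHCIIlo, and 17.3 and 27.6 CPM in Tspan8negMHCIIhi. The Tspan8pos libraries did not overlap with the Tspan8neg libraries, and within Tspan8neg cells the MHCIIlo libraries lay above the MHCIIhi libraries. The log2 fold change of Tspan8pos over Tspan8neg was 3.64 ± 0.22 (SE) in MHCIIhi cells (edgeR adjusted p = 6.32e-07) and 2.11 ± 0.21 in MHCIIlo cells (edgeR adjusted p = 1.57e-05). Within Tspan8neg cells, Tspan1 fell by 1.49 on the log2 scale from MHCIIlo to MHCIIhi (edgeR adjusted p = 3e-04). Within Tspan8pos cells the log2 difference was 0.05, with a 95% interval from -0.38 to 0.48.

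Tspan15, at chr10:62185396-62231251, was at 68.5 and 69.9 CPM in Tspan8posMHCIIhi and at 57.2 and 54.9 CPM in Tspan8posMHCIIlo. The Tspan8neg libraries had 11.0 and 12.6 CPM in MHCIIhi and 7.30 and 7.31 CPM in MHCIIlo cells. Its levels thus followed the order Tspan8posMHCIIhi, Tspan8posMHCIIlo, Tspan8negMHCIIhi and Tspan8negMHCIIlo, with no overlap between subsets. The log2 fold change of Tspan8pos over Tspan8neg was 2.93 ± 0.19 in MHCIIlo cells (edgeR adjusted p = 7.34e-07) and 2.54 ± 0.16 in MHCIIhi cells (edgeR adjusted p = 8.97e-07). The neighbouring subsets at each Tspan8 level were not separated by a call, with log2 differences between MHCIIhi and MHCIIlo of 0.70 in Tspan8neg cells (edgeR adjusted p = 0.0168) and 0.31 in Tspan8pos cells (edgeR adjusted p = 0.196). Markers of late mTEC states moved with Tspan8, Tspan1 and Tspan15. The 4 markers of keratinocyte-like mTECs summed to 2388 to 2740 CPM in the Tspan8pos and 50 to 122 CPM in the Tspan8neg libraries, and 3 microfold markers to 1229 to 1980 CPM and 213 to 356 CPM. All 4 tuft cell markers were also called higher with Tspan8 at both MHCII levels, but their sums in Tspan8posMHCIIhi and Tspan8negMHCIIlo overlapped. The part of these markers in these results was not tested.

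Cd9, a tetraspanin known for its part in the fusion of sperm and egg, lies at chr6:125460266-125494791. It had 333 and 316 CPM in Tspan8posMHCIIhi and 317 and 275 CPM in Tspan8posMHCIIlo. It had 204.5 and 185 CPM in Tspan8negMHCIIlo and 147 and 140.1 CPM in Tspan8negMHCIIhi. All Tspan8pos libraries were above all Tspan8neg libraries. Cd9 rose by 1.18 ± 0.13 on the log2 scale with Tspan8 in MHCIIhi cells (edgeR adjusted p = 4.78e-05), a 2.26-fold ratio of the subset means. In MHCIIlo cells the log2 fold change was 0.60 with an edgeR adjusted p of 0.00397, which passes the p threshold but not the fold limit. Of the exon bases of Cd9, 10.7% are overlapped by genes on the opposite strand, and the sources used here do not settle whether the counting used strand.

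Cd81 ran the other way. Its human counterpart is an entry receptor of hepatitis C virus, and it lies at chr7:143052739-143067934. It had 53.9 and 50.7 CPM in Tspan8negMHCIIlo and 28.7 and 33.1 CPM in Tspan8negMHCIIhi. In Tspan8posMHCIIlo it had 20.9 and 19.25 CPM, and in Tspan8posMHCIIhi 18.1 and 18.3 CPM. The Tspan8neg libraries all lay above the Tspan8pos libraries. Cd81 fell by 1.40 on the log2 scale (SE 0.177) in Tspan8pos against Tspan8neg cells within MHCIIlo (edgeR adjusted p = 9.94e-05). Within MHCIIhi the log2 fold change was -0.77 (edgeR adjusted p = 0.00477), and within Tspan8neg cells that of MHCIIhi over MHCIIlo was -0.75 (edgeR adjusted p = 0.0034), both under the fold limit. Genes on the opposite strand overlap 3.6% of its exon bases.

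The remaining members were not called between Tspan8pos and Tspan8neg cells at either MHCII level. Cd63, at chr10:128900989-128912822, had 209 and 126 CPM in Tspan8negMHCIIlo and 160.3 and 159 CPM in Tspan8negMHCIIhi. It had 131 and 113 CPM in Tspan8posMHCIIhi and 87.4 and 83.1 CPM in Tspan8posMHCIIlo. The Tspan8negMHCIIlo replicates thus enclosed those of Tspan8negMHCIIhi, and the Tspan8posMHCIIlo pair lay below all other libraries. In MHCIIlo cells the log2 fold change of Tspan8pos over Tspan8neg was -0.98 (edgeR adjusted p = 0.00341), which missed the fold limit, and it became -1.30 and was called without replicate 2 of Tspan8negMHCIIlo.

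Tspan3 and Cd82 had their higher levels in the MHCIIhi subsets. Tspan3, a broadly expressed tetraspanin at chr9:56131725-56165477, had 76.7 and 81.3 CPM in Tspan8negMHCIIlo and 109 and 95.55 CPM in Tspan8posMHCIIlo. It had 141.0 and 141.5 CPM in Tspan8negMHCIIhi and 165 and 154 CPM in Tspan8posMHCIIhi. Every MHCIIhi library was above every MHCIIlo library. Its log2 fold change of MHCIIhi over MHCIIlo was 0.84 in Tspan8neg cells (edgeR adjusted p = 0.000489) and 0.65 in Tspan8pos cells (edgeR adjusted p = 0.00644), both under the fold limit.

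Cd82, known as a suppressor of metastasis, lies at chr2:93419111-93463140. It had 326 and 294.5 CPM in Tspan8negMHCIIlo and 413 and 376 CPM in Tspan8posMHCIIlo. It had 523 and 515 CPM in Tspan8negMHCIIhi and 512 and 517 CPM in Tspan8posMHCIIhi. The MHCIIhi subsets overlapped with each other and lay above the MHCIIlo subsets. Between Tspan8posMHCIIhi and Tspan8negMHCIIhi the log2 difference was -0.01 with a 95% interval from -0.28 to 0.25. Within Tspan8neg cells the log2 fold change of MHCIIhi over MHCIIlo was 0.74 (edgeR adjusted p = 0.000622) and within Tspan8pos cells 0.39 (edgeR adjusted p = 0.0526). As for Tspan3 and Cd82, 6 dendritic cell and macrophage markers had higher sums in the MHCIIhi libraries, 376 to 485 CPM against 59.6 to 217 CPM. Not all 6 ran this way. For MHCIIhi over MHCIIlo, 3 were called higher in Tspan8neg and 1 in Tspan8pos cells, and none lower. Against Tspan8negMHCIIlo, 3 were called higher and 1 lower in Tspan8posMHCIIhi. Against Tspan8negMHCIIhi, 1 was called higher and 3 lower in Tspan8posMHCIIlo. The part of these cell types was not tested.

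Cd151, at chr7:141467392-141471473, had 107 and 77.1 CPM in Tspan8negMHCIIlo and 42.8 and 36.7 CPM in Tspan8negMHCIIhi. It had 58.95 and 70.3 CPM in Tspan8posMHCIIhi and 70.9 and 64.3 CPM in Tspan8posMHCIIlo. Within Tspan8neg cells it fell by 1.22 on the log2 scale from MHCIIlo to MHCIIhi (SE 0.186, edgeR adjusted p = 0.000387). That call was lost without replicate 1 of Tspan8negMHCIIlo, where the log2 fold change was -0.97, and without replicate 2 of Tspan8negMHCIIhi (edgeR adjusted p = 0.0137). Within Tspan8pos cells the difference was -0.06 with a 95% interval from -0.47 to 0.36, and the libraries overlapped. Genes on the opposite strand overlap 7.0% of its exon bases. Like Cd151 and Cd81, 6 markers of cortical thymic epithelial cells had their highest sum in Tspan8negMHCIIlo, with 1145 and 948 CPM against 444 to 555 CPM elsewhere. Not all 6 ran this way. Against Tspan8negMHCIIlo, 2 were called lower and 1 higher in Tspan8negMHCIIhi, and 3 lower and 1 higher in Tspan8posMHCIIhi. The 3 endothelial markers summed to 106.5 and 85.6 CPM there and to 13 to 61.0 CPM elsewhere, and the part of these cell types was not tested.

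**Figure D2:**
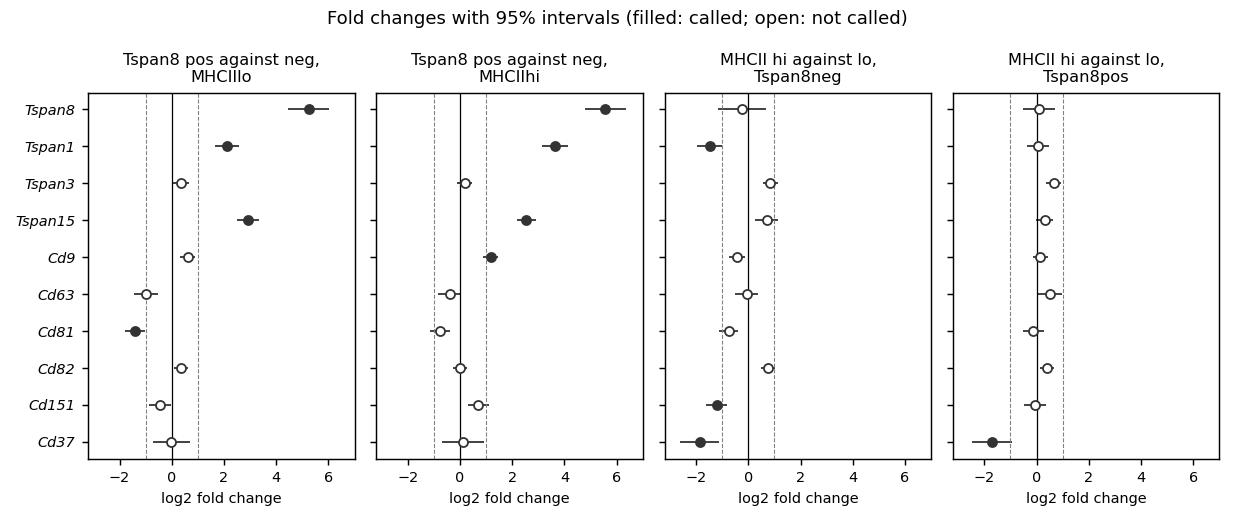
Log2 fold changes of the 10 tetraspanin genes (horizontal axis) in the 4 comparisons, with bars for the 95% interval of the edgeR fit over all 8 libraries, a solid line at 0 and dashed lines at the fold limit of 1. Filled points are called, 3 higher and 1 lower in MHCIIlo and 4 higher in MHCIIhi cells for Tspan8, and 3 lower in Tspan8neg and 1 lower in Tspan8pos cells for MHCII.

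Read across the 10 members, Tspan8pos against Tspan8neg in MHCIIlo cells gave 3 members called higher and 1 called lower, where 21.4% of all genes tested were called. Tspan8 itself, set by the gate, is among the 3. In MHCIIhi cells 4 members were called higher, Tspan8 included, against 18.5% of all genes. None was called lower there by edgeR or by DESeq2, and 1 was lower at an unadjusted p under 0.05. This was Cd81 (-0.77, edgeR adjusted p = 0.00477), which passed the p threshold but not the fold limit. The median log2 fold change of the members was 0.35 in MHCIIlo and 0.44 in MHCIIhi cells, beside -0.03 over all genes in each comparison. These medians include Tspan8, whose fold change is set by the gate, so they do not describe the other 9 members. For MHCIIhi against MHCIIlo in Tspan8neg cells, 3 members (Tspan1, Cd151 and Cd37) were called lower, where 22.7% of all genes were called. None was called higher by edgeR or by DESeq2, and 3 were higher at an unadjusted p under 0.05. Of these, Tspan3 (0.84, edgeR adjusted p = 0.000489) and Cd82 (0.74, edgeR adjusted p = 0.000622) passed the p threshold but not the fold limit. In Tspan8pos cells only Cd37 was called, where 7.21% of all genes were. Between Tspan8posMHCIIhi and Tspan8negMHCIIlo, 4 members (Tspan8, Tspan1, Tspan3 and Tspan15) were called higher and 2 (Cd81 and Cd37) lower, against 24.7% of all genes. The Cd37 call there was lost without replicate 2 of Tspan8negMHCIIlo, where the log2 fold change was -1.16 (edgeR adjusted p = 0.0127), and without replicate 1 of Tspan8posMHCIIhi. Between Tspan8posMHCIIlo and Tspan8negMHCIIhi, 5 members (Tspan8, Tspan1, Tspan15, Cd9 and Cd37) were called higher, against 29.3%. None was called lower by edgeR over all 8 libraries or by DESeq2, and 4 were lower at an unadjusted p under 0.05. Of these, Cd63 passed the p threshold but not the fold limit (-0.91, edgeR adjusted p = 0.00369). It was called lower when edgeR was fitted to the 4 libraries of the comparison only (-1.01, edgeR adjusted p = 3.47e-06). The member counts for both MHCII comparisons are thus close to the shares called over all genes in either direction. All of these member calls were lower, where 9.67% of all genes were called lower in Tspan8neg and 2.62% in Tspan8pos cells. The difference from these shares was not tested.

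Tspan1 was the member whose Tspan8 fold change differed between MHCII levels. The test of that difference gave 1.54 ± 0.29 on the log2 scale (edgeR adjusted p = 0.00719), a fold change larger in MHCIIhi than in MHCIIlo cells. Tspan1 is 1 member of 10 called, where 4.6% of all genes were called in this interaction. The call was lost when all libraries were thinned to 1941518 counts (edgeR adjusted p = 0.0135). It was also lost without replicate 1 of Tspan8negMHCIIhi, where the difference was 1.20, and when any of the 4 Tspan8pos libraries was left out, where it lay between 1.47 and 1.66. For Cd151 the difference was 1.16 (edgeR adjusted p = 0.0162), short of the threshold, and it was called without replicate 2 of Tspan8negMHCIIlo (edgeR adjusted p = 0.000776).

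Cd37, at chr7:45233632-45239115, had its highest levels in the MHCIIlo subsets. It had 16.0 and 31.6 CPM in Tspan8negMHCIIlo and 19.8 and 26.2 CPM in Tspan8posMHCIIlo. It had 6.45 and 6.665 CPM in Tspan8negMHCIIhi and 5.97 and 8.33 CPM in Tspan8posMHCIIhi. All MHCIIlo libraries were above all MHCIIhi libraries, and the Tspan8pos and Tspan8neg libraries overlapped at each MHCII level. Cd37 fell by 1.86 on the log2 scale from MHCIIlo to MHCIIhi in Tspan8neg cells (SE 0.343, edgeR adjusted p = 0.00129) and by 1.72 in Tspan8pos cells (SE 0.349, edgeR adjusted p = 0.00641). The call in Tspan8neg cells was lost without either Tspan8negMHCIIhi library, and it held without replicate 2 of Tspan8negMHCIIlo with a log2 fold change of -1.29 (edgeR adjusted p = 0.00673). The call in Tspan8pos cells was lost in 6 of the 8 fits that left out a library and after thinning (edgeR adjusted p = 0.0261). Between Tspan8posMHCIIlo and Tspan8negMHCIIlo the difference was -0.02 with a 95% interval from -0.73 to 0.68. It became 0.565 without replicate 2 of Tspan8negMHCIIlo.

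Some markers of leukocytes moved with part of this pattern, and others ran against it. The 8 thymocyte markers, none of them at 0 in any library, summed to 423 and 1164 CPM in Tspan8negMHCIIlo and to between 68.8 and 211 CPM in the other libraries. Ptprc, which encodes CD45, was at 89.3 and 205 CPM in Tspan8negMHCIIlo, 54.4 and 72.9 CPM in Tspan8posMHCIIlo and between 11.9 and 25.0 CPM in the MHCIIhi libraries. The dendritic cell and macrophage markers given above had their lower sums in the MHCIIlo libraries, opposite to Cd37, though the single markers did not all run this way. The 4 tuft cell markers summed to 5267 and 5419 CPM in Tspan8posMHCIIlo and 837 and 1130 CPM in Tspan8negMHCIIlo. Their sums were 874 and 1001 CPM in Tspan8posMHCIIhi and 127.5 and 138.8 CPM in Tspan8negMHCIIhi. Cd53, another tetraspanin of leukocytes, had 6.46 and 19.6 CPM in Tspan8negMHCIIlo but 1.65 and 1.50 CPM in Tspan8posMHCIIlo, where Cd37 was high. Its log2 fold change of Tspan8pos over Tspan8neg in MHCIIlo cells was -3.07 (edgeR adjusted p = 0.00462), and it became -2.05 and was not called without replicate 2 of Tspan8negMHCIIlo. The Cd53 call was also lost without either Tspan8posMHCIIlo library. In replicate 1 of Tspan8posMHCIIlo, Cd53 at 1.65 CPM lay near the floor of 1.55 CPM for that library. The size of the Cd53 fold change is therefore uncertain. The part of these other cell types in the Cd37 and Cd53 values was not tested.

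**Figure D3:**
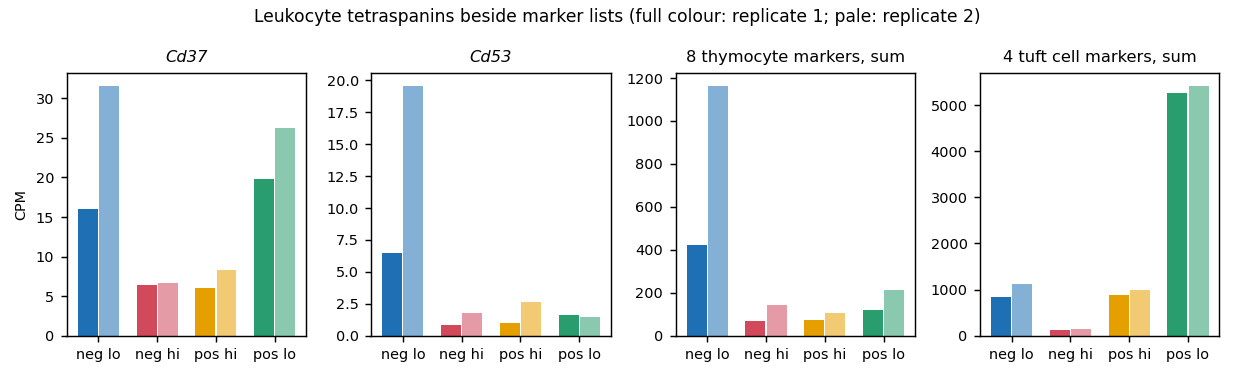
Bars show the level in CPM (linear axes from 0) of the tetraspanin genes Cd37 and Cd53 and the summed level of 8 thymocyte and 4 tuft cell markers in each library, in full colour for replicate 1 and pale for replicate 2 of each subset. Cd37 is at 16.0 CPM or more in both MHCIIlo subsets, whereas Cd53 and the thymocyte markers peak in Tspan8negMHCIIlo and the tuft cell markers in Tspan8posMHCIIlo.

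Levels of different genes were compared per kilobase of annotated exon. On this scale the 31 tetraspanin genes considered here, the 10 members and 21 others, summed to between 489 and 517 CPM per kilobase in the Tspan8neg libraries and to between 893 and 976.5 in the Tspan8pos libraries. Without Tspan8 the sums were 480.2 to 515 and 678 to 739 CPM per kilobase, so that the Tspan8pos libraries remained above all Tspan8neg libraries. The members held between 68.9% and 82.3% of the sum in every library. Cd82 had the largest share in Tspan8neg cells, with 33.8% ± 0.214 (SD, n = 2) in Tspan8negMHCIIhi and 20.5% ± 0.64 in Tspan8negMHCIIlo, followed by Cd9 with 13.8% ± 0.425 and 18.9% ± 0.605.

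In Tspan8pos cells Tspan8 took the first rank of the 31 genes, with 23.2% ± 1.63 in Tspan8posMHCIIhi and 23.4% ± 1.02 in Tspan8posMHCIIlo, against 0.909% and 1.09% in Tspan8negMHCIIhi and Tspan8negMHCIIlo. The Tspan8 share is set by the sort gate. Its level also enters the sum on which all shares rest, and shares without Tspan8 were not computed. Cd82 then held 17.9% ± 0.639 and 14.6% ± 0.872, and Cd9 16.6% ± 0.142 and 16.1% ± 1.51. The smaller Cd82 share in Tspan8posMHCIIhi than in Tspan8negMHCIIhi came with like levels. These were 170.5 and 172.1 against 174 and 171.5 CPM per kilobase. Tspan1 rose from 1.89% and 5.46% in the Tspan8negMHCIIhi and Tspan8negMHCIIlo subsets to 12.8% and 13.1% at the same MHCII levels of Tspan8pos cells. Tspan15 had its largest mean share, 0.884%, in Tspan8posMHCIIhi, which placed it at rank 13. With the longest annotated transcript in place of all exon bases, this share was 1.41% at rank 11, and Cd82 and not Tspan8 ranked highest in Tspan8posMHCIIhi (20.9% against 20.2%).

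**Figure D4:**
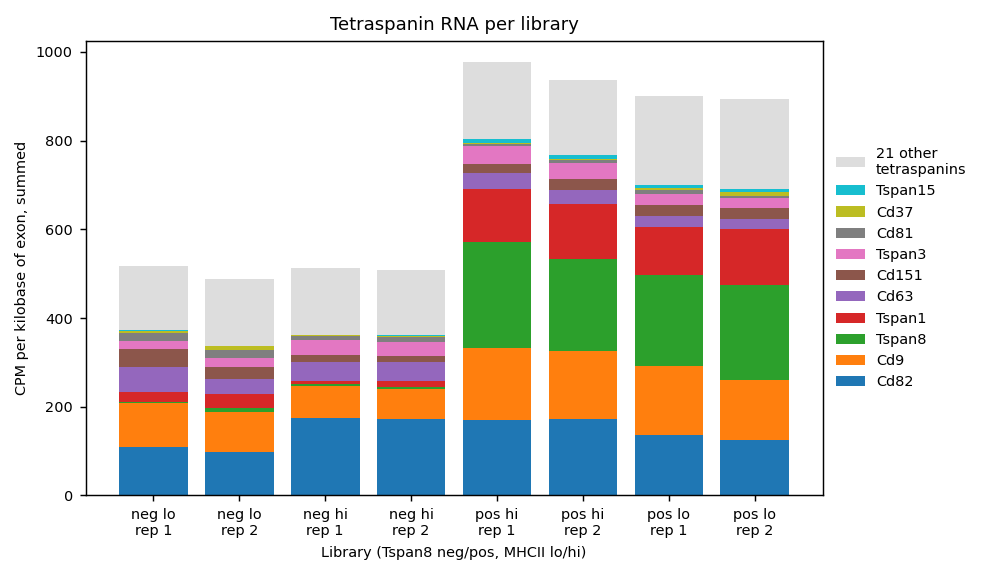
Stacked bars give the summed level of 31 tetraspanin genes in CPM per kilobase of exon (vertical axis, from 0) for each library, coloured by member, with the 21 other tetraspanins in grey. The Tspan8neg bars reach 489 to 517 and the Tspan8pos bars 893 to 976.5, and the Tspan8 and Tspan1 segments are the ones that widen most visibly.

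Of the 21 other tetraspanins, 20 could be tested, and Tspan11 had too few counts. In MHCIIlo cells 2 of them were called higher and 2 lower with Tspan8, and in MHCIIhi cells 4 higher and 2 lower. Over all genes 21.4% and 18.5% were called, so that the 4 of 20 in MHCIIlo cells are close to the background. Tspan6 had 96.7 and 114 CPM in Tspan8posMHCIIlo and 26.1 and 25.4 CPM in Tspan8posMHCIIhi, against 14.6 and 17.7 CPM in Tspan8negMHCIIlo and 3.95 and 4.49 CPM in Tspan8negMHCIIhi. It was called higher with Tspan8 at both MHCII levels, with log2 fold changes of 2.71 ± 0.18 in MHCIIlo (edgeR adjusted p = 9.18e-07) and 2.59 ± 0.21 in MHCIIhi cells (edgeR adjusted p = 4.28e-06). It was also lower in MHCIIhi than in MHCIIlo cells at both Tspan8 levels, and the 4 subsets did not overlap. Its level was highest in the subset where the tuft cell markers were highest, and their part in it was not tested.

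Upk1b, a tetraspanin of the urothelial plaque, was likewise higher in Tspan8pos cells. It had 12.6 and 17.9 CPM in Tspan8posMHCIIlo and 11.75 and 13.6 CPM in Tspan8posMHCIIhi, against 1.18 to 3.08 CPM in the Tspan8neg libraries. The log2 fold change was 2.998 ± 0.445 in MHCIIlo cells (edgeR adjusted p = 0.000299) and 2.25 ± 0.40 in MHCIIhi cells (edgeR adjusted p = 0.00107). Without replicate 1 of Tspan8negMHCIIlo the former was 3.72, and the latter call was lost without replicate 1 of Tspan8negMHCIIhi or replicate 2 of Tspan8posMHCIIhi. Upk3a, the plaque protein that pairs with Upk1b, had 81.9 and 93.1 CPM in Tspan8posMHCIIlo and 112 and 109 CPM in Tspan8posMHCIIhi, against 1.40 to 11.4 CPM in Tspan8neg libraries. Its log2 fold change with Tspan8 was 5.03 ± 0.29 in MHCIIlo (edgeR adjusted p = 3.83e-07) and 3.44 ± 0.22 in MHCIIhi cells (edgeR adjusted p = 8.97e-07), the former 5.95 without replicate 2 of Tspan8negMHCIIlo. Upk2 was at or under the floor in both Tspan8negMHCIIlo libraries, and its mean of 10.6 CPM in Tspan8posMHCIIlo was at least 13-fold higher than the mean floor over that group. In MHCIIhi cells Upk2 had 18.9 and 21.1 CPM in Tspan8pos against 4.78 and 6.15 CPM in Tspan8neg libraries, a log2 fold change of 1.85 (edgeR adjusted p = 0.00235) whose call was lost after thinning and when any of these 4 libraries was left out. Of the 3 uroplakin partners counted, these 2 were called higher with Tspan8 at both MHCII levels, where 12.1% of all genes were called higher in MHCIIlo and 11% in MHCIIhi cells. The third was not called, and at an unadjusted p under 0.05 it was higher in MHCIIlo and lower in MHCIIhi cells. Upk1a, another tetraspanin that was not called with Tspan8, had 3.22 and 4.29 CPM per kilobase in Tspan8posMHCIIhi. It had 8.49 and 7.94 CPM per kilobase in Tspan8negMHCIIhi.

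Another 3 tetraspanins were called in MHCIIhi cells alone. Tspan18 had 28.9 and 29.1 CPM in Tspan8negMHCIIhi and 8.56 and 9.55 CPM in Tspan8posMHCIIhi, and Tspan33 had 25.0 and 24.9 CPM against 9.36 and 7.32 CPM. Both were lower in Tspan8pos cells, by log2 fold changes of -1.68 (edgeR adjusted p = 0.00199) and -1.58 (edgeR adjusted p = 0.00125). Tspan5 was higher by 1.17 (edgeR adjusted p = 0.00463). None of the 3 was called in the interaction, with adjusted p between 0.136 and 0.368 in edgeR, so a difference between MHCII levels was not shown for them. The calls of Tspan18 and Tspan5 were lost when any of the 4 MHCIIhi libraries was left out, that of Tspan5 also after thinning, and that of Tspan33 without 3 of these 4.

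Tspan9 was called in opposite directions at the MHCII levels, but neither call held in every alternative. It had 33.1 and 38.9 CPM in Tspan8negMHCIIlo and 20.3 and 16.0 CPM in Tspan8posMHCIIlo, a log2 fold change of -1.03 (edgeR adjusted p = 0.00511). In MHCIIhi cells it had 7.49 and 7.05 CPM in Tspan8neg and 18.9 and 13.8 CPM in Tspan8pos libraries, a log2 fold change of 1.17 (edgeR adjusted p = 0.00373). The difference between these fold changes was 2.21 ± 0.35 (edgeR adjusted p = 0.00268). The separate calls were each lost in DESeq2's Wald test, with adjusted p of 0.0227 and 0.0167, where the interaction was still called. The MHCIIlo call was also lost without a filter, after thinning and in the fit of its own 4 libraries. It was lost without replicate 2 of Tspan8negMHCIIlo (-0.92, edgeR adjusted p = 0.017) and without either Tspan8posMHCIIlo library (-1.18 and -0.82). The MHCIIhi call was lost when either Tspan8negMHCIIhi library or replicate 1 of Tspan8posMHCIIhi was left out. The interaction call was lost without either Tspan8negMHCIIhi library, without replicate 1 of Tspan8posMHCIIhi and without replicate 2 of Tspan8posMHCIIlo.

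**Figure D5:**
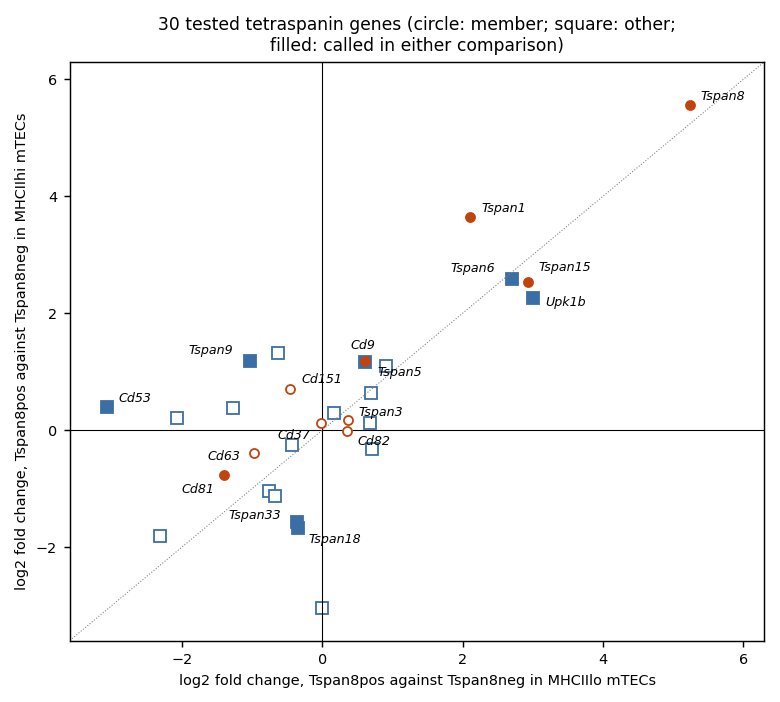
Log2 fold changes of Tspan8pos over Tspan8neg for 30 tested tetraspanin genes in MHCIIlo cells (horizontal axis) and MHCIIhi cells (vertical axis), with circles for the 10 members, squares for the 20 others, filled symbols for genes called in either comparison and a dotted line of equal change. Tspan8, Tspan1, Tspan15, Tspan6 and Upk1b lie at the upper right, Cd9 and Tspan5 fall on nearly the same point, and Tspan9 lies at the upper left.

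The known partners of the members were then counted, from lists by role. The TspanC8 group with Adam10, the protease it escorts, comprised 7 genes. In MHCIIlo cells 1 of the 7 (Tspan15) was called higher with Tspan8, and in MHCIIhi cells 2 (Tspan15 and Tspan5) were called higher and 1 (Tspan33) lower, beside 21.4% and 18.5% of all genes called. Adam10, singled out after its values were seen, had 158.5 and 149 CPM in Tspan8posMHCIIhi against 76.7 and 90.6 CPM in Tspan8negMHCIIhi. Its log2 fold change of 0.87 (edgeR adjusted p = 0.00162) was under the fold limit, as was that of 0.65 in MHCIIlo cells (edgeR adjusted p = 0.0105). Within this group, Tspan15 rose and Tspan33 fell with Tspan8 in MHCIIhi cells while Tspan14 had log2 fold changes of 0.17 and 0.29 in MHCIIlo and MHCIIhi cells, neither of them called.

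Laminin-binding integrins, the partners of CD151, had negative log2 fold changes with Tspan8 for all 5 genes at both MHCII levels, and 1 of the 5 was called at each. Their median log2 fold changes were -0.87 and -0.50 in MHCIIlo and MHCIIhi cells, beside -0.03 over all genes, and the 1 of 5 called is near the 21.4% and 18.5% of all genes. Itgb4, which pairs with Itga6, had 657 and 521 CPM in Tspan8negMHCIIlo and 230.3 and 201.5 CPM in Tspan8posMHCIIlo. It fell by 1.45 on the log2 scale (SE 0.151, edgeR adjusted p = 2.36e-05). Itga7 had 27.4 and 19.9 CPM in Tspan8negMHCIIhi and 3.98 and 7.72 CPM in Tspan8posMHCIIhi. It fell by 2.01 (SE 0.408, edgeR adjusted p = 0.00269), a call that was lost without either Tspan8negMHCIIhi library or replicate 1 of Tspan8posMHCIIhi. In the same comparison the 4 fibroblast markers summed to 166 and 156 CPM in Tspan8negMHCIIhi and to 53.4 and 52.6 CPM in Tspan8posMHCIIhi, with 2 of the 4 called lower, and their part in the Itga7 value was not tested.

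Of the 3 immunoglobulin superfamily partners of CD9 and CD81, Ptgfrn was higher and Igsf3 lower in a Tspan8 comparison each. Ptgfrn had 50.7 and 44.2 CPM in Tspan8negMHCIIhi and 193 and 170.3 CPM in Tspan8posMHCIIhi, and it rose by 1.94 ± 0.19 on the log2 scale (edgeR adjusted p = 1.79e-05). In MHCIIlo cells its log2 fold change was 0.24 (edgeR adjusted p = 0.329), and the difference between the 2 fold changes was called, at 1.70 ± 0.27 (edgeR adjusted p = 0.00262). Igsf8 went the other way in that test, with a difference of -1.56 ± 0.26 (edgeR adjusted p = 0.00403), from a log2 fold change of 0.93 in MHCIIlo to -0.63 in MHCIIhi cells. Both of these interaction calls were lost in 6 of the 8 fits that left out a library. Igsf3 fell by 1.68 with Tspan8 in MHCIIlo cells (edgeR adjusted p = 0.000268), a call that was lost without replicate 2 of Tspan8posMHCIIlo.

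Among 4 epithelial partners, 3 were called higher with Tspan8 in MHCIIlo and 1 in MHCIIhi cells, where 12.1% and 11% of all genes were called higher. Hbegf, a growth factor whose membrane-bound form associates with CD9, had 182.5 and 217 CPM in Tspan8posMHCIIlo and 172 and 169 CPM in Tspan8posMHCIIhi. The Tspan8neg libraries had 45.2 and 37.2 CPM in MHCIIlo and 21.8 and 26.5 CPM in MHCIIhi cells, well below all Tspan8pos libraries. Its log2 fold change was 2.29 ± 0.17 in MHCIIlo (edgeR adjusted p = 1.74e-06) and 2.81 ± 0.17 in MHCIIhi cells (edgeR adjusted p = 5.58e-07). Cldn7, a tight junction protein found with Epcam and tetraspanins, rose by 1.76 ± 0.17 in MHCIIlo cells (edgeR adjusted p = 1.57e-05) and had a log2 fold change of 0.57 in MHCIIhi cells, a difference of -1.19 ± 0.24 (edgeR adjusted p = 0.0091) whose call was lost in 7 of the 8 fits that left out a library. Epcam, which was used in the sort, rose by 1.20 in MHCIIlo cells, and its call was lost without replicate 2 of Tspan8negMHCIIlo, at 0.97. None of the 5 vesicle partners of CD63 (Sdcbp, Pdcd6ip, Tsg101, Lamp1 and Lamp2) was called by edgeR or by DESeq2 in the comparisons at 1 Tspan8 or MHCII level or in the interaction, while 3 in MHCIIlo and 4 in MHCIIhi cells were higher with Tspan8 at an unadjusted p under 0.05. Between Tspan8posMHCIIlo and Tspan8negMHCIIhi, Sdcbp was called higher by edgeR (1.02, edgeR adjusted p = 0.00021) and not by DESeq2, where 14.7% of all genes were called higher by edgeR.

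As a description over the 8 libraries, which share the 4 subsets, the members that varied together were Tspan8 with Tspan15 (Pearson's r = 0.97 of log2 CPM), Tspan3 with Cd82 (0.966) and Tspan1 with Cd9 (0.965). The most opposed were Tspan15 with Cd81 (-0.947) and Cd82 with Cd37 (-0.897). Over the 11047 genes that averaged 10 CPM or more, the profile most like that of Tspan8 was that of Calm4 (r = 0.9986), and those most like Tspan1 and Tspan15 were Bace2 (0.9968) and Endod1 (0.998). The closest genes were Fabp5 for Tspan3 (0.9943), Alox12e for Cd82 (0.994) and Baiap2l1 for Cd9 (0.9955). They were Lgals1 for Cd81 (0.9932), Pdgfa for Cd63 (0.9833), Ifnar2 for Cd151 (0.9907) and Dynlt1c for Cd37 (0.991). With 4 subsets behind the 8 libraries, many genes share such profiles, and 522 genes exceeded an r of 0.95 with Tspan8 against 20 with Cd63.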

How the data were processed

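The 8 RNA-seq libraries of sorted mouse mTECs were grouped by the Tspan8 and MHCII levels in their titles, which also number the replicates. The table deposited by the authors holds estimated counts in whole numbers, not normalised. Per the submitters' processing notes and the paper, they used FastQC, Salmon 1.8.0 and DESeq2 1.30.0, and the rounding step is not stated. The notes name mm10, and the paper an earlier GENCODE transcriptome than the release matched here, so exon lengths may differ from those counted. The labels name a stranded kit and the paper cDNA pre-amplification with tagmentation, so strand use is not settled and genes with overlaps on the opposite strand are uncertain.

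The 25466 gene identifiers were matched to GENCODE M21 symbols on GRCm38, with 25336 matched and 130 not. Counts were tested in R 4.3.3 with edgeR 4.0.16 (glmQLFit and glmQLFTest, TMM scaling, filterByExpr, all 8 libraries in 1 model with 4 subset means), which left 17006 genes, at a common dispersion of 0.024. All p-values are two-sided and adjusted over all genes tested, and standard errors were derived from the fold change and its F statistic. With 2 libraries in each group an exact permutation test cannot pass 0.05, and it was not run. The replicates differed by more than counting noise (chi-square of 3.29 to 9.84 for each gene), and all were kept. The scripts were tested on simulated data. Amplified reads that carry no molecular identifiers are not independent, so floors cover counting error only.

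The members, gene lists and tests were chosen with earlier results of these data known. All 10 members were named. Other tetraspanins were named where called in a Tspan8 comparison or the interaction, partners where called in a Tspan8 comparison, and for likeness the genes with the highest r per member on log2 CPM with a prior count of 2. Levels per kilobase used all annotated exon bases of a gene. Alternatives were DESeq2 1.42.0 (Wald test and size factors), no filter, at least 10 counts in at least 4 libraries, the replicate number as a block, thinning, an adjusted p of 0.05, no fold limit, the 4 libraries of a comparison, each library left out, and the longest transcript as gene length. A listed partner gene and a marker list that holds it are not reported here.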

Additional observations from a re-analysis of the deposited data

Results flagged for a closer look

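For 5 of the named genes the test of the difference itself found that the Tspan8 fold change differed between MHCIIhi and MHCIIlo mTECs. The difference was 1.54 ± 0.29 (SE) on the log2 scale for Tspan1 (edgeR adjusted p = 0.00719), with Tspan8pos libraries above Tspan8neg libraries at both MHCII levels. It was 2.21 for Tspan9 (edgeR adjusted p = 0.00268), whose levels were lower with Tspan8 in MHCIIlo and higher in MHCIIhi cells. Ptgfrn, a partner of CD9 and CD81, had a difference of 1.70 (edgeR adjusted p = 0.00262), and Igsf8, which binds the same tetraspanins, had -1.56 (edgeR adjusted p = 0.00403). Cldn7 had -1.19 (edgeR adjusted p = 0.0091). In the fits that left out a library, Tspan1 ranged from 1.20 to 1.87 and lost its call in 5 of 8, Tspan9 lost its call in 4, Ptgfrn and Igsf8 lost theirs in 6 and Cldn7 in 7 of 8. In the same interaction 4.6% of all genes were called.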

How the results depend on the processing

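Of the alternatives for the members' log2 fold changes, 1110 kept the direction and the call, 17 gained a call, 32 lost it and 21 reversed the sign, all of the last for values that were not called. The partners and other tetraspanins were followed only where already called, in the comparisons at 1 Tspan8 or MHCII level and in the interaction. Of these alternatives 650 kept the direction and the call, 89 lost it and none reversed. A gained call could not occur among them, so this tally cannot be set against that of the members. The reversed values of Cd63 for MHCIIhi against MHCIIlo in Tspan8neg cells were 0.0168 with DESeq2's size factors, 0.0161 in its Wald test, 0.00176 without a filter and 0.00407 in the 4 libraries of the comparison, and between -0.396 and 0.333 with a library left out. Cd37 in MHCIIlo cells for Tspan8 was 0.0126 without a filter. With a library left out, it ranged from -0.417 to 0.565 there, from -0.125 to 0.364 in MHCIIhi cells and from -0.432 to 0.561 in the interaction. Under the same omission Cd82 in MHCIIhi cells for Tspan8 ranged from -0.0984 to 0.0168, and Tspan8 from -0.871 to 1.12 for MHCII in Tspan8neg cells and from -1.04 to 0.975 in the interaction. For MHCII in Tspan8pos cells, Tspan1 then ranged from -0.0236 to 0.168 and Cd151 from -0.186 to 0.0891.

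The count of members called for MHCII in Tspan8neg cells was 3, 6 with no fold limit and between 1 and 3 with a library left out. In Tspan8pos cells it was 1, with 0 after thinning, 2 with no fold limit and between 0 and 1 with a library left out. In the interaction it was 1, with 2 without a filter, 2 with the replicate number as a block, 2 at an adjusted p of 0.05, 0 after thinning and between 0 and 2 with a library left out. Between Tspan8posMHCIIlo and Tspan8negMHCIIhi it was 5, and between 3 and 5 with a library left out. For the other tetraspanins, omission of a library gave between 2 and 4 calls for Tspan8 in MHCIIlo cells (4 with all libraries), between 1 and 7 in MHCIIhi cells (6), between 5 and 8 for MHCII in Tspan8neg cells (9), between 1 and 3 in Tspan8pos cells (1) and between 0 and 2 in the interaction (1). In Tspan8pos cells the count was 2 without a filter, 2 with at least 10 counts in at least 4 libraries, 2 with the replicate block, 2 in the 4 libraries of the comparison and 3 at an adjusted p of 0.05, and in the interaction 2 at an adjusted p of 0.05. The cause of these changes was not tested.

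Over the genes tested, libraries that share a replicate number deviated together from the subset means only weakly, with correlations of 0.00402 to 0.0924. In every subset, though, the thymocyte marker sum was higher in replicate 2 and the mTEC marker sum higher in replicate 1. Whether a replicate number stands for a shared preparation was not tested. With the replicate block Cd151 was called in the interaction (1.15, edgeR adjusted p = 0.00703). Over all genes, the interaction had 783 calls, 1267 without a filter, 1236 with the block, 1754 at an adjusted p of 0.05 and between 189 and 1385 with a library left out. MHCII in Tspan8pos cells had 1226 calls, 1858 at an adjusted p of 0.05 and between 427 and 1671 with a library left out. Omission of a library gave between 2273 and 3740 calls for Tspan8 in MHCIIlo cells (3640 with all), between 2045 and 3637 in MHCIIhi cells (3143) and between 2360 and 3759 for MHCII in Tspan8neg cells (3866). Cd9 for Tspan8posMHCIIlo against Tspan8negMHCIIhi (1.04) and Tspan3 for Tspan8posMHCIIhi against Tspan8negMHCIIlo (1.01) sit at the fold limit, and the call of Cd9 was lost with DESeq2's size factors (0.96), in its Wald test (0.958), with at least 10 counts in at least 4 libraries (0.999), after thinning (0.947), in its own 4 libraries (0.947) and without either Tspan8negMHCIIhi library or replicate 1 of Tspan8posMHCIIlo (0.908 to 0.975). That of Tspan3 was lost without replicate 1 of Tspan8negMHCIIlo (0.985) or of Tspan8posMHCIIhi (0.978).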
